A study of Mus musculus with 50 samples.

Results

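The 8 genes described here encode enzymes that form NADPH or belong to the pentose phosphate pathway: G6pdx, Pgls, Pgd, Tkt, Taldo1, Idh1, Idh2 and Me1. They were taken by name from the 37701 genes of the expression table, and all 8 were among the 16733 genes that were expressed highly enough to be tested. The set was chosen by the RPKM of Idh1, which had been seen to be higher in the glargine tumors, and completed with enzymes of the same task, so the difference between glargine and vehicle is given for every member, and that between Idh1 and vehicle for every treatment, as a description without a test. RNA was measured in 50 mammary gland (MG) tumors of female p53R270H/+WAPCre mice, 10 per treatment. In these mice a Cre recombinase under the WAP promoter, which is active in the mammary epithelium, switches on a mutant p53 allele, and all treatment groups carry it. From 8 weeks of age the mice were injected under the skin every other day with vehicle, insulin, glargine (a long-acting insulin analogue), X10 (an insulin analogue with a high affinity for the IGF1 receptor) or IGF1. Tumors were taken at 1 cm3, 24 h after the last injection, and the 10 per group were EMT-like tumors with a latency near the median of their group, so they are a chosen subset and each comes from another mouse. The group called vehicle here is titled untreated in the sample labels.

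NADPH is the reducing agent that cells spend on fatty acid and cholesterol synthesis and on keeping glutathione and thioredoxin reduced. In the oxidative branch of the pentose phosphate pathway, glucose 6-phosphate dehydrogenase (G6pdx) makes NADPH in the committing step, the lactonase Pgls opens the product, and 6-phosphogluconate dehydrogenase (Pgd) makes NADPH again while releasing ribulose 5-phosphate. Transketolase (Tkt) and transaldolase (Taldo1) form the reversible non-oxidative branch, which exchanges carbon between sugar phosphates of the pathway and those of glycolysis. Cytosolic Idh1, mitochondrial Idh2 and the cytosolic malic enzyme Me1 make NADPH from isocitrate or malate. In the mammary gland, these reactions are known for supplying lipid synthesis during lactation, and several of the genes are textbook targets of the oxidative stress factor NRF2 or of the lipid synthesis factor SREBP.

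The libraries held between 26.57 and 51.89 Mreads (megareads), as recovered from the steps between the RPKM values. RPKM is the number of reads on a gene scaled by the library size and the gene length. The lowest number of reads on any member in any tumor was 896, for Pgls, Since the tumors are bulk tissue, fewer cells of a type and less RNA per cell cannot be told apart. All epithelial, fibroblast, macrophage, endothelial and adipocyte markers that were found were detected in every group, and the summed RPKM of the 7 epithelial markers ran from 11.962 to 4547.5 within the vehicle group alone.

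All members were well expressed. The gene lengths behind the deposited RPKM values differed from those of the principal transcripts (597 against 3223 bases for Tkt, and 915 against 2652 for G6pdx), so levels were compared between genes only after the reads were divided by the length of the principal transcript in GENCODE M21. On that scale, which is RPKM with these lengths, Pgd (84.5 ± 16.7, SD, n = 50) and Taldo1 (84.5 ± 17.7) were the highest, followed by Tkt (53.4 ± 15.5) and Idh2 (53.1 ± 11.2). Pgls was at 45.8 ± 12.1, Idh1 at 41.1 ± 8.79, G6pdx at 37.4 ± 7.27 and Me1 was the lowest at 27.3 ± 13.1. The step from Taldo1 to Tkt was larger than the SD of either gene over the tumors, and that from G6pdx to Me1 was larger than the SD of G6pdx but not that of Me1. The other neighbours in this order differed by less than the smaller of their SDs. The spread between tumors of the same treatment was small for most members: the SD of log2(RPKM + 0.5) within groups was 0.26 for G6pdx and 0.38 or less for 7 of the 8, while its median over all tested genes was 0.41. Me1 stood apart with an SD of 0.67, larger than that of 80.2% of the tested genes. These genes were not matched to the members by level. By mean RPKM the members ranked from the 72.0 percentile (Me1) to the 97.9 percentile (Tkt) of the tested genes.

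Promoter sequences are shown for 5 members: Me1 and G6pdx, which hold the core of the antioxidant response element that NRF2 binds, and Tkt, Taldo1 and Pgls, whose levels were positively correlated over the tumors and which hold none. The sequences are from RefSeq (GRCm38.p6), 300 bases around the annotated start, 5′ to 3′ on the strand of the gene, with the motif in capitals. The motif searched was TGACNNNGC on both strands, and 12.4% of the 32851 promoters of this length hold it.
Me1, chr9:86695865-86696164, minus strand: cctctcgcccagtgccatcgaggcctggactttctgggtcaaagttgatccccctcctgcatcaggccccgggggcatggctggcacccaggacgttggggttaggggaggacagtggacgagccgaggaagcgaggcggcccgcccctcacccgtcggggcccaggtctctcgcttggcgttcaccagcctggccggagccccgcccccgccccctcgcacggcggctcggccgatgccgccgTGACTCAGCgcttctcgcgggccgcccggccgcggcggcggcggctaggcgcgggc
G6pdx, chrX:74428831-74429130, minus strand: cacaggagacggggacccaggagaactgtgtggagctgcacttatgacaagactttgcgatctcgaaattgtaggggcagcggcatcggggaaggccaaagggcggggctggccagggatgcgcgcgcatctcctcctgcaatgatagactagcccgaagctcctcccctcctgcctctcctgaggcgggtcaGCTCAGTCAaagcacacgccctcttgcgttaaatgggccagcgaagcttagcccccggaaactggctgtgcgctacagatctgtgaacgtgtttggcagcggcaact
Tkt, chr14:30548881-30549180, plus strand: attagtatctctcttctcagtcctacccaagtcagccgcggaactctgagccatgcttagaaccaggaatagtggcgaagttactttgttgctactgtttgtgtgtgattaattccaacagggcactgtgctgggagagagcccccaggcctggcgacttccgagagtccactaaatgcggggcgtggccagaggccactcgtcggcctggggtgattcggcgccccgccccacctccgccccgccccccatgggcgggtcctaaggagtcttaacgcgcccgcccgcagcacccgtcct
Taldo1, chr7:141391910-141392209, plus strand: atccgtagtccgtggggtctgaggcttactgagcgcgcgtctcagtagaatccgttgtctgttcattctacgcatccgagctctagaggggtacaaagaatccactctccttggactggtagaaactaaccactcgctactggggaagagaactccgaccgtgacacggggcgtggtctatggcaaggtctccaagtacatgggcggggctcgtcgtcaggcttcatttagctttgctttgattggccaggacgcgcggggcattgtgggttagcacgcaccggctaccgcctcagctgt
Pgls, chr8:71591934-71592233, plus strand: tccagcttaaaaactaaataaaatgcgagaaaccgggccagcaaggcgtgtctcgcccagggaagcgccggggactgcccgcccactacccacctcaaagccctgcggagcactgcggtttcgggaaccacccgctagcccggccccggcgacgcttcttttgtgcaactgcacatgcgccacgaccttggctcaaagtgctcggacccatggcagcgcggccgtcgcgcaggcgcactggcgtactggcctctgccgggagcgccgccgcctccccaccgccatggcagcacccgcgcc
In Me1 the match, TGACTCAGC, begins at position -6 from the start, and in G6pdx the match lies on the opposite strand and reads GCTCAGTCA from position -57. A further match, TGACATTGC at position 4, was found in an alternative start of Pgd. The sterol regulatory element TCACNCCAC, present in 1.24% of all promoters, was not found in the windows of any member. These matches only describe the letters in the windows.

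G6pdx lies on chromosome X (chrX:74409483-74429194, minus strand, GRCm38) and overlaps Ikbkg, which is on the opposite strand. Its RPKM ran from 79.0 to 129.7 in vehicle tumors, and its lowest, median and highest value were 68.8, 93.9 and 154.6 in insulin tumors. They were 96.4, 111.7 and 119.7 with glargine, 79.4, 106.3 and 153.7 with X10 and 91.1, 112.0 and 177.6 with IGF1. All groups overlapped, the glargine tumors lay closest together, and 9 of 10 IGF1 tumors were above the vehicle mean. The mean was 119 ± 24.2 RPKM (SD, n = 10) with IGF1 and 99.8 ± 16.2 with vehicle, a log2 fold change of 0.25 ± 0.12 (SE) with an adjusted p of 0.537 (limma, Benjamini-Hochberg). G6pd2, a retained copy of this gene without introns that could share reads with it, was at 2.52 over the 50 tumors against 37.4 for G6pdx, both per length of the principal transcript.

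Pgls, the lactonase (chr8:71592176-71601092, plus strand, overlapping Fam129c on the same strand), ran from 26.8 over a median of 38.2 to 64.8 RPKM in vehicle tumors and from 30.8 over 36.0 to 49.8 in insulin tumors. In glargine tumors it ran from 25.7 over 35.0 to 57.6, in X10 tumors from 27.1 over 32.3 to 39.6 and in IGF1 tumors from 30.1 over 37.7 to 80.5. None of the 10 X10 tumors reached the vehicle mean of 41.0 RPKM, though all of them lay within the vehicle range. X10 tumors averaged 33.0 ± 4.44 RPKM (SD, n = 10), a log2 fold change of -0.28 ± 0.14 (SE) from vehicle with an adjusted p of 0.479 (limma). The share of processed pseudogenes in the summed RPKM of the tested genes had a median of 3.51% in X10 tumors and 4.94% in vehicle tumors. With this share as a covariate, the log2 fold change of Pgls was -0.12. This covariate was added after the values had been seen.

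Pgd, the second NADPH-forming dehydrogenase of the oxidative branch (chr4:149149991-149166771, minus strand), was at a lowest, median and highest RPKM of 157.96, 190.2 and 364.5 in vehicle tumors and 172.2, 244.5 and 316.0 in insulin tumors. The corresponding values were 149.0, 230.9 and 273.1 with glargine, 175.4, 198.9 and 291.5 with X10 and 179.0, 243.1 and 282.6 with IGF1. Although 9 of 10 IGF1 tumors and 8 of 10 insulin tumors exceeded the vehicle median, no tumor of any treatment exceeded the highest vehicle tumor. The means, from 212 ± 36.0 RPKM with X10 to 239 ± 36.1 with IGF1 (SD, n = 10), differed by less than the SD between each pair of neighbours.

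Tkt (chr14:30548359-30574720, plus strand), is the transketolase of the non-oxidative branch. In vehicle tumors it ran from 186.99 over a median of 275.4 to 680.8 RPKM and in insulin tumors from 233.6 over 271.3 to 386.2. The ranges were 177.2 to 384.9 (median 274.6) with glargine, 192.1 to 361.4 (253.4) with X10 and 171.0 to 350.4 (286.1) with IGF1. The vehicle range enclosed all insulin and X10 tumors. The vehicle mean, 316 ± 147.4 RPKM (SD, n = 10), was the highest of the groups. It includes the tumor titled Untreated_174, at 680.8 RPKM, and without that tumor the log2 fold change of insulin against vehicle turned from -0.012 to 0.12 and that of IGF1 against vehicle from -0.092 to 0.043. None of these passed the test.

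Taldo1, the transaldolase (chr7:141392199-141402968, plus strand), ran from 93.4 over a median of 129.4 to 216.7 RPKM in vehicle tumors and from 96.7 over 123.8 to 157.9 in insulin tumors. It ran from 99.1 over 114.1 to 155.6 with glargine, from 86.7 over 115.6 to 183.4 with X10 and from 98.9 over 122.1 to 162.1 with IGF1. No treated tumor was above the highest vehicle tumor and 1 X10 tumor was below the lowest. The mean of 134 ± 38.8 RPKM (SD, n = 10) in vehicle tumors was above that of every treatment (119 to 127 RPKM), but by less than the SD.

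Idh1, the cytosolic isocitrate dehydrogenase (chr1:65158616-65186500, minus strand), was the member that had been noted beforehand. Its lowest, median and highest RPKM were 22.7, 39.3 and 52.2 in vehicle tumors and 27.9, 48.0 and 61.1 in glargine tumors. They were 34.7, 42.2 and 49.1 with insulin, 37.9, 46.8 and 52.6 with X10 and 24.4, 33.6 and 52.6 with IGF1. The groups overlapped: 9 of 10 glargine tumors and 10 of 10 X10 tumors were above the vehicle mean, 4 of 10 IGF1 tumors were, and 4 of the vehicle tumors (22.7 to 29.8 RPKM) lay below the other 6. The glargine mean was 47.7 ± 8.91 RPKM (SD, n = 10) against 36.2 ± 9.77 for vehicle, a log2 fold change of 0.41, which is the value that chose the set. For X10, at 45.2 ± 6.15 RPKM, the log2 fold change was 0.35 ± 0.13 (SE), for insulin 0.23 ± 0.13 and for IGF1 0.027 ± 0.13. These use the same vehicle tumors, whose Idh1 level took part in choosing the set, and are given without a test. Against insulin, Idh1 was at a log2 fold change of 0.12 ± 0.13 with X10 (adjusted p = 0.793, limma) and -0.21 ± 0.13 with IGF1 (adjusted p = 0.739, limma).

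Other measures differed between the same groups. The summed RPKM of the 7 adipocyte markers had a median of 206 in glargine tumors and 62.7 in vehicle tumors, with ranges of 21.9 to 629 and 18.9 to 314, and the r of Idh1 with the adipocyte score was 0.20 over the 50 tumors, 0.20 without the glargine tumors and 0.096 within treatments, given here without a test. With the processed pseudogene share, the r of Idh1 was -0.33 over the 50 tumors, -0.45 within treatments and -0.53 without the glargine tumors. These values are also given without a test. The log2 fold change of Idh1 for X10 was 0.22 with the processed pseudogene share as a covariate and 0.28 without Untreated_174, the tumor with the lowest Idh1. The part of these measures in the differences was not tested further.

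Idh2, the mitochondrial counterpart (chr7:80094846-80115392, minus strand), followed another order. Its lowest, median and highest RPKM were 70.7, 96.7 and 109.9 in vehicle tumors and 54.0, 84.0 and 104.7 in insulin tumors. With glargine they were 67.3, 100.1 and 129.2, with X10 76.2, 93.7 and 115.5 and with IGF1 65.1, 93.6 and 142.7. In the insulin group 4 of 10 tumors lay below the lowest vehicle tumor, while in the IGF1 group 4 of 10 lay above the highest and 2 below the lowest. Insulin tumors had the lowest mean (81.5 ± 18.4 RPKM, SD, n = 10) and IGF1 tumors the highest (102 ± 27.4), a log2 fold change of 0.31 ± 0.13 (SE) between them with a p of 0.0232 before adjustment and an adjusted p of 0.634 (limma).

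Me1, the cytosolic malic enzyme (chr9:86581371-86695953, minus strand), varied most. In vehicle tumors it ran from 7.504 over a median of 20.7 to 77.96 RPKM, a 10.4-fold range, and in X10 tumors from 9.25 over 22.9 to 54.6. It ran from 11.5 over 27.1 to 38.9 with insulin, from 20.9 over 25.4 to 37.0 with glargine and from 15.4 over 28.9 to 49.5 with IGF1. Every treated tumor fell inside the vehicle range, and all 10 glargine tumors were above the vehicle median. The IGF1 mean of 31.0 ± 11.5 RPKM (SD, n = 10) compared with 25.7 ± 20.3 for vehicle, and the log2 fold change of 0.48 ± 0.29 (SE) had an adjusted p of 0.690 (limma). Without Untreated_189, the highest for Me1, it was 0.69 (adjusted p = 0.352, limma). With the adipocyte, skeletal muscle and epithelial marker scores as covariates, it was 0.22 (adjusted p = 0.963, limma).

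**Figure D1:**
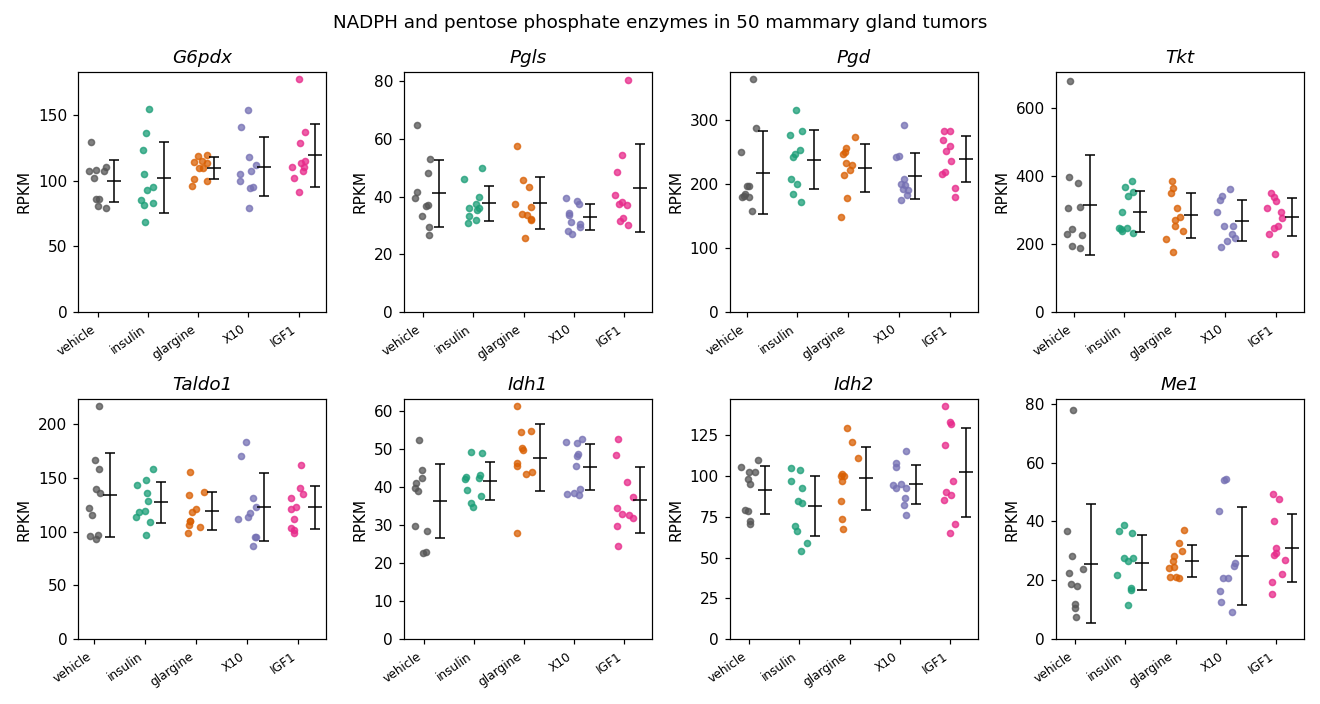
RPKM (y axis, from 0) of the 8 members in each tumor, by treatment group (x axis); points are tumors, and the black bar gives the mean and SD of the 10 tumors. The groups overlap for every member, and single vehicle tumors stand far above the rest for Tkt (680.8 RPKM) and Me1 (77.96 RPKM).

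None of the members passed the test in any comparison in which it was tested. The question behind these comparisons was whether chronic activation of the insulin or IGF1 receptor changes the metabolic program of the tumors. With limma on log2(RPKM + 0.5) and a Benjamini-Hochberg adjusted p under 0.05, 0 of the 7 members other than Idh1 were called for insulin against vehicle (0% of all tested genes were called), for X10 against vehicle (0.0657% of all tested genes) and for IGF1 against vehicle (0.00598%). The count was likewise 0 of 7 for the X10 and IGF1 tumors together against the vehicle, insulin and glargine tumors (0.155%), and 0 of 8 for X10 against insulin (0.102%) and for IGF1 against insulin (0.00598%). For glargine against vehicle, where members were not tested, 0% of all genes were called. With so few genes called anywhere, a count of 0 says little about the members. Before adjustment, a p under 0.05 was obtained by 1 of 7 members for IGF1 (G6pdx) and 1 of 8 for IGF1 against insulin (Idh2), by 0 of 7 for insulin, for X10 and in the pooled comparison, and by 0 of 8 for X10 against insulin. Over all genes that share was 11.0% for X10, 8.84% for IGF1 and 7.30% for IGF1 against insulin, and 11.1% for insulin, 11.3% for X10 against insulin and 10.5% in the pooled comparison. With limma voom on the recovered reads, none was called in these 6 comparisons either. The comparisons with vehicle share the vehicle tumors.

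The direction was mixed. The log2 fold changes of the members had a median of 0.00028 for insulin, with 4 of 8 above 0, and of 0.028 for X10, with 4 of 8 above 0, while the medians over all tested genes were 0.026 and -0.034. For IGF1, 6 of 8 were above 0 and the median was 0.091 (0.015 over all genes). For glargine, 5 of 8 were above 0 and the median was 0.087 (0.021 over all genes). Taldo1 and Tkt were below 0 with each of the 4 treatments, but with insulin both turned above 0 under quantile normalization (0.060 for Tkt and 0.019 for Taldo1), and without Untreated_174 Tkt turned with insulin, glargine and IGF1. G6pdx, Me1 and Idh1 were above 0 with each treatment, except that G6pdx with insulin and Idh1 with IGF1 were so close to 0 that their sign depended on the setting. Epithelial and macrophage markers differed between the same groups, though none was called. All 7 epithelial markers had log2 fold changes below 0 with insulin (median -1.19) and with IGF1 (median -2.18). The number was 6 of 7 with glargine (median -0.39) and 5 of 7 with X10 (median -0.49). Their summed RPKM had a median of 345 with vehicle (11.96 to 4548), 268 with insulin (70.9 to 576) and 135.35 with IGF1 (12.5 to 679). It was 283 with glargine (184 to 601) and 331 with X10 (67.2 to 1430). Of the 5 macrophage markers, 4 were above 0 with insulin (median 0.68), with glargine (0.47) and with X10 (0.22), and 5 with IGF1 (0.46). Their sum had a median of 686 RPKM with vehicle (341 to 1385), 906 with insulin (391 to 1739) and 908 with IGF1 (600 to 1962). It was 763 RPKM with glargine (543 to 1381) and 807 with X10 (429 to 971). With the adipocyte, skeletal muscle and epithelial scores as covariates, Tkt was at 0.12 with insulin and 0.13 with IGF1. Taldo1 was then at 0.038 and 0.045, so all were above 0. The macrophage score was not among these covariates. Whether these markers reflect the mix of cells or the state of the tumor cells, and their part in the differences, was not tested further.

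The 95% intervals limit how large a change could have been missed: for G6pdx with IGF1 the interval was 1.01 to 1.41-fold, for Pgd with X10 0.834 to 1.19-fold and for Me1 with IGF1 0.926 to 2.10-fold.

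**Figure D2:**
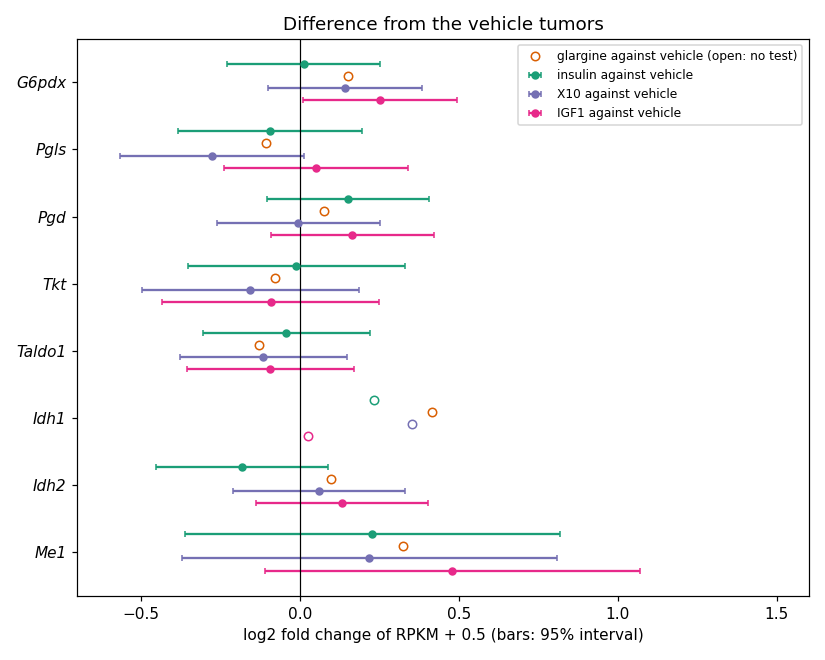
Log2 fold change of RPKM + 0.5 against the vehicle tumors (x axis) for each member (y axis); filled points with bars are the limma estimate with its 95% interval, and open points are the glargine values and those of Idh1, which were not tested. The interval of G6pdx with IGF1 (0.25) lies above 0 before adjustment for the number of genes, the others include 0, and the intervals of Me1 are the widest.

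No gene of the wider pathway passed the test either. Of 11 tested genes that surround the pentose phosphate pathway, none was called in the 6 tested comparisons. The smallest p was that of Rpia, the ribose 5-phosphate isomerase, with 6.61 ± 1.99 RPKM (SD, n = 10) in IGF1 tumors and 11.7 ± 7.89 in vehicle tumors (log2 fold change -0.62, adjusted p = 0.394, limma). Next came Rpe, the ribulose phosphate epimerase, with 13.2 ± 2.56 RPKM with X10 and 9.79 ± 0.931 with insulin (0.40, adjusted p = 0.248, limma). The transketolase-like genes Tktl1 and Tktl2 were not tested, since they averaged only 0.0587 and 0.00904 RPKM.

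None of 11 further genes was called either, a list of NADPH-forming enzymes, NAD kinases and their relatives, some of which work mainly with NAD. Me2, a mitochondrial malic enzyme of the latter kind, was at 30.5 ± 6.34 RPKM with insulin and 23.0 ± 10.9 with vehicle (log2 fold change 0.50, adjusted p = 0.342, limma), and the nicotinamide nucleotide transhydrogenase Nnt had a log2 fold change of -0.33 for X10 against insulin (adjusted p = 0.474, limma). The 3 subunits of the NAD-dependent isocitrate dehydrogenase had adjusted p-values of 0.837 or more (limma). Idh3g, a regulatory subunit, was at a log2 fold change of 0.10 for IGF1 against insulin (adjusted p = 0.882, limma), and Idh3a, a catalytic one, at -0.084 in the pooled comparison (adjusted p = 0.863, limma).

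Among 15 enzymes that spend NADPH, none was called. The lowest p belonged to the squalene epoxidase Sqle, a cholesterol synthesis enzyme, at 33.1 ± 9.63 RPKM with X10 and 19.7 ± 8.38 with insulin (SD, n = 10; log2 fold change 0.79, adjusted p = 0.196, limma). Blvrb, a biliverdin reductase, was at 0.43 for IGF1 against vehicle (adjusted p = 0.513, limma). The 10 NRF2 targets had no call. Their median log2 fold change against vehicle was -0.045 with insulin, -0.21 with glargine, -0.039 with X10 and -0.038 with IGF1, where the medians over all tested genes were 0.026, 0.021, -0.034 and 0.015, so for X10 the value was close to that of all genes. Osgin1 and Txnrd1 had the smallest p-values, at -0.57 and -0.35 for X10 (adjusted p = 0.388 and 0.432, limma), and both had a larger SD in vehicle tumors (8.35 and 26.9 RPKM) than in X10 tumors (2.12 and 8.36 RPKM). Of the 10 SREBP targets, which include Sqle, none was called, and Scd1, the stearoyl-CoA desaturase, had the smallest p, at 21.0 ± 11.6 RPKM with IGF1 against 55.3 ± 49.8 with vehicle (log2 fold change -1.21, adjusted p = 0.361, limma).

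Over the tumors, the members fell into separate patterns. Among the 28 pairs, 9 had an adjusted permutation p under 0.05 for Pearson's r over the 50 tumors (two-sided, 100000 resamples, Benjamini-Hochberg over the 28 pairs), and 4 had one for Spearman's rho. Both counts include pairs of Idh1 with its glargine and vehicle values. Without the glargine tumors, 8 pairs were called in r and 2 in rho. Pgls, Pgd, Tkt and Taldo1, which span both branches of the pathway, had a positive r that passed in all 6 of their pairs, and a rho that passed in 3 of them (adjusted permutation p = 0.0588 for Pgls with Pgd and for Tkt with Taldo1, and 0.137 for Pgd with Taldo1). The highest r was that of Pgls and Taldo1 (r = 0.54, adjusted p = 0.00126; rho = 0.50, adjusted p = 0.0104), followed by Pgd and Tkt (r = 0.53, adjusted p = 0.00126; rho = 0.44, adjusted p = 0.0211) by permutation. The lowest of the 6 was that of Pgd and Taldo1 (r = 0.34, adjusted permutation p = 0.0492), which missed the threshold with another pseudocount. G6pdx, which catalyses the step before Pgls, was in none of the called pairs, its r with Pgd being 0.31 (adjusted permutation p = 0.0687) and with Pgls 0.11 (0.640).

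The NADPH makers outside the pathway went the other way or apart. For Idh1, whose level in the glargine and vehicle tumors chose the set, the test was read from values centred within each treatment, where the group means play no part. There Idh1 was lower where Pgls was higher (r = -0.45, adjusted permutation p = 0.00523) and where Taldo1 was higher (r = -0.51, adjusted permutation p = 0.00168). Without centring, r was -0.51 and -0.49 and rho -0.34 and -0.39 over the 50 tumors, and r was -0.52 and -0.46 without the glargine tumors. Me1 was lower where Pgls was higher (r = -0.38, adjusted permutation p = 0.0258; rho = -0.30, 0.105). Idh1 and Idh2, the cytosolic and mitochondrial forms of the same reaction, had an r of 0.019, and Idh1 and Me1 an r of 0.077. After centring on the group means, r was 0.55 for Pgls with Taldo1 and for Pgd with Tkt, so these relations were present within the treatments. Without the 2 tumors farthest from the median of the first gene, r was 0.41 for Pgls with Taldo1 and for Pgd with Tkt, -0.32 for Pgls with Idh1, -0.29 for Pgls with Me1 and -0.49 for Taldo1 with Idh1.

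The number of pairs called rested on 2 tumors. Untreated_174 was the highest of the 50 for Pgd, Tkt and Taldo1, the second for Pgls, and the lowest for Idh1 and Me1. IGF1_160 was the highest for Pgls and ranked 48 of 50 for Idh1. Without Untreated_174, 5 of the 28 pairs were called (adjusted permutation p under 0.05 for r), without IGF1_160 there were 8, and without both there were 0, where Pgls with Taldo1 had an r of 0.41 (adjusted permutation p = 0.0531; rho = 0.44, adjusted p = 0.0473), Pgd with Tkt 0.41 (0.0531), Taldo1 with Idh1 -0.35 and Pgls with Idh1 -0.32. These tumors were left out after the values had been seen. The sign of r stayed the same for all 9 pairs.

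**Figure D3:**
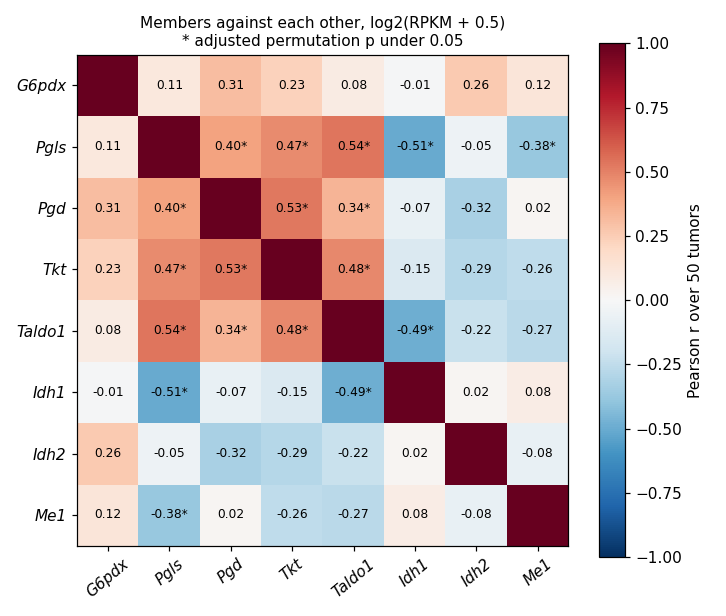
Pearson's r between each pair of members over the 50 tumors, on log2(RPKM + 0.5), in color and in numbers; an asterisk marks an adjusted permutation p under 0.05 over the 28 pairs, which for Idh1 includes the glargine and vehicle values that chose the set. Pgls, Pgd, Tkt and Taldo1 form a block of positive values (0.34 to 0.54), and Idh1 is at -0.51 and -0.49 with Pgls and Taldo1.

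Relations to other cell properties were few. Of 104 relations between a member and a marker score, the library size or the pseudogene share, 6 had an adjusted permutation p under 0.05 for r, and 2 for rho. Pgls and Taldo1 were lower where the 10 SREBP targets were higher (r = -0.50 and -0.46, adjusted permutation p = 0.0146 and 0.0214; rho = -0.35 and -0.48, 0.248 and 0.0307). Taldo1 was also lower in tumors with a higher score of the 5 cell cycle genes (r = -0.45, adjusted permutation p = 0.0214; rho = -0.38, 0.222). Tkt was higher with the epithelial score (r = 0.46, adjusted permutation p = 0.0214; rho = 0.27, 0.457) and lower with the fibroblast score (r = -0.42, adjusted permutation p = 0.0350; rho = -0.33, 0.334). Without the 2 tumors farthest from the median of the score, r was -0.29 and -0.43 for the SREBP targets with Pgls and Taldo1, -0.48 for the cell cycle genes with Taldo1, and 0.23 and -0.41 for the epithelial and fibroblast scores with Tkt. Untreated_174 had the highest epithelial score of the 50, and without it r was 0.30 for Tkt with the epithelial score and -0.36 with the fibroblast score, and that of Taldo1 with the cell cycle genes was -0.37 (adjusted permutation p = 0.212), so none of the 3 passed. Without IGF1_160 the last of these was -0.42 (adjusted permutation p = 0.0518). Without that tumor, r with the SREBP targets was -0.36 for Pgls (adjusted permutation p = 0.122) and -0.42 for Taldo1 (0.0518). For Tkt it was -0.43 with the fibroblast score (0.0518), so these did not pass either, while Tkt with the epithelial score did (0.48, 0.0281). Without Untreated_174 and IGF1_160, the relation that still passed was that of Pgls with the processed pseudogene share (r = 0.50, adjusted permutation p = 0.0395), which over all tumors was 0.51 (0.0146). Idh1 was lower where this share was higher, with an r of -0.33 over the 50 tumors. It was -0.45 within treatments and -0.53 without the glargine tumors, given here without a test. The part of this share in the relation of Pgls with Idh1 was not tested.

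The score of the 10 NRF2 targets gave no call for any member. Its r was -0.041 with G6pdx (adjusted permutation p = 0.953) and -0.10 with Me1 (0.797), the members whose promoters hold the antioxidant element core shown above. Without the 2 tumors farthest from the median of this score, r was 0.21 for G6pdx and 0.022 for Me1. Whether NRF2 acts on these genes was not tested. The library size gave no call for any member.

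Each member was also compared with the other genes of the table, as a description chosen after the data had been seen and without a p-value. For Me1, Tkt and G6pdx, the 3 genes that varied most like them over the 50 tumors lay on their own chromosome. Me1 was most like Mrpl3, Tmem30a and Arih2 (Spearman's rho 0.80, 0.80 and 0.79), all on chromosome 9. Tkt was most like Tmem110, Actr8 and Reep4 (0.69, 0.67 and 0.63), all on chromosome 14, of which Tmem110 and Actr8 begin 0.277 and 0.57 Mb away. G6pdx was most like Irak1, Phka2 and Pdzd11 (0.61, 0.58 and 0.56), all on chromosome X, and Pgd was most like Acot7 and Apitd1 on chromosome 4 (0.76 and 0.69) and Ppp1r14b on chromosome 19 (0.67).

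Of the 50 genes most like each member, 44 lay on the same chromosome for Me1, 37 for Pgd, 31 for G6pdx and 30 for Tkt, where that chromosome holds 5.66%, 6.31%, 3.24% and 3.48% of the genes compared. The number was 12 for Taldo1, 8 for Idh1, 5 for Pgls and 2 for Idh2. Such clustering was common in these tumors: over 14462 genes the median share on the same chromosome was 22%. The 5 and 95 percentiles of this share were 2% and 90%, and Me1 (88%) was above 93.7% of genes and Idh2 (4%) above 9.46%. The nearest genes of Pgls were Adprhl2, Emc10 and Tmem147 (rho 0.78, 0.78 and 0.76), and of Taldo1 AI413582, A430104N18Rik and Ndufs7 (0.73, 0.72 and 0.72), none of them on its own chromosome. Those of Idh1 were 2610044O15Rik8, Zfp799 and Zfp119a (0.64, 0.61 and 0.57), and Idh2 was most like Echs1 on its own chromosome 7 (0.64) and Ptcd3 and Caprin2 on chromosome 6 (both 0.63).

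The members were also compared with the mean level of the other genes on each chromosome. Me1 had a rho of 0.77 with the mean of the 820 other chromosome 9 genes (r = 0.72; 0.72 without the 2 farthest tumors and 0.73 within treatments), though its rho with the mean of chromosome X was also 0.67. The rho with the own chromosome was 0.50 for Pgd, 0.46 for Tkt, 0.38 for Taldo1 and 0.27 for G6pdx, in each case the highest of the 20 chromosomes. It was the second highest for Idh1 (0.36) and the sixth for Pgls (0.091) and Idh2 (0.21). The own chromosome was the highest for 43.9% of all genes and for 5 of the 8 members. For 7 of the 8 members, Idh1 being the exception, the median rho was higher for genes of the own chromosome within 10 Mb than for farther ones. It was 0.50 for the 81 genes within 10 Mb of Me1, 0.32 for the 739 farther genes of the chromosome and 0.059 for genes of other chromosomes, and for Pgd the medians were 0.30, 0.16 and 0.015. The medians within 10 Mb and farther away were close for Tkt (0.20 and 0.18) and for Idh2 (0.060 and 0.056). How many of all genes have a higher median within 10 Mb was not counted. DNA copy number was not analysed here.

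**Figure D4:**
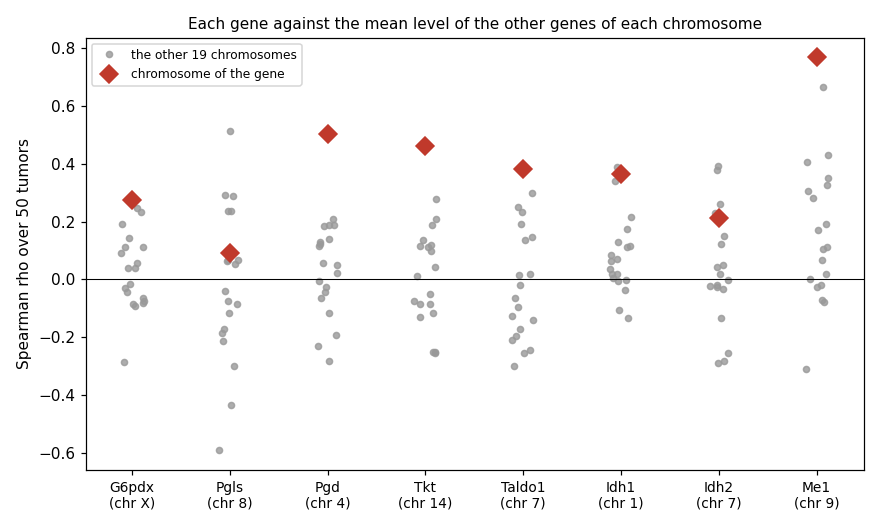
Spearman's rho over the 50 tumors (y axis) between each member (x axis, with its chromosome) and the mean level of the other genes of each chromosome; red diamonds are the own chromosome and grey points the other 19. The own chromosome is the highest point for G6pdx, Pgd, Tkt, Taldo1 and Me1, and lies among the others for Pgls and Idh2.

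**Figure D5:**
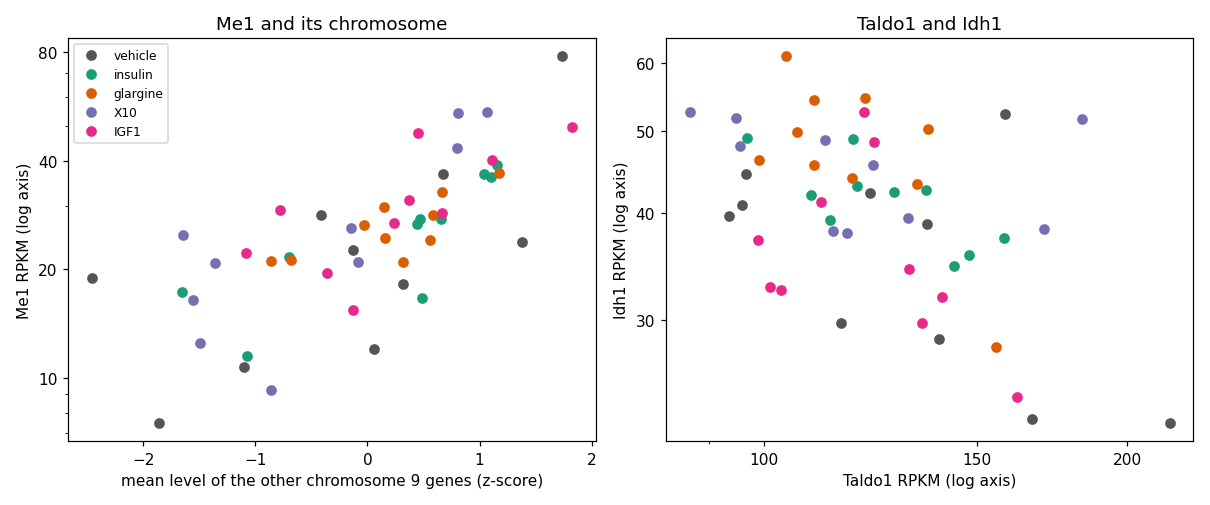
Left, Me1 RPKM (log axis) against the mean level of the other chromosome 9 genes (z-score), and right, Idh1 against Taldo1 RPKM (both log axes); each point is 1 of 50 tumors, colored by treatment. Me1 rises with its chromosome (rho 0.77) in tumors of all treatments, and the tumor with the highest Taldo1 (216.7 RPKM) has the lowest Idh1 (22.7 RPKM).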

How the data were processed

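Expression was measured in 50 mouse mammary gland tumors, 10 per treatment. The authors sequenced polyadenylated RNA on an Ion Proton instrument, used TopHat2 (2.0.10) and then Bowtie2 for alignment to GRCm38, obtained gene counts with HTSeq (0.6.1) and deposited RPKM values, which scale each count by library size and gene length. The paper states that the counting used the default options. How reads on overlapping genes were assigned was not examined here. Their DESeq2 (1.2.10) test was not repeated. The members and gene lists were chosen with earlier results of these data known.

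Gene lengths, reads and library sizes were recovered from the spacing of the values; with reads scaled to a library of 100 M, at least 96% of the values up to 60 lay within 0.50 of a whole read in every tumor, where 26.7% to 51.7% of all whole numbers up to 60 would. The 16733 genes whose mean RPKM reached 0.5 were tested on log2(RPKM + 0.5) with limma 3.58.1 in R 4.3.3, with 5 groups in the fit, an intensity trend and Benjamini-Hochberg adjustment. Idh1 was in the fits against vehicle, but its p-values there are not used, since its vehicle level took part in choosing the members. The procedure was tested on simulated data. Since p-values rest on 1 tumor per mouse, they include the spread between mice.

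Correlations used two-sided permutation tests with 100000 resamples, adjusted over 28 pairs or 104 relations. Marker scores average the z-scores of the listed genes within each tumor. Those used as covariates were the adipocyte, skeletal muscle and epithelial scores. Named genes are the 8 members, G6pd2, the list genes passing the test or otherwise the 2 with the smallest p of each list (of which those of the pathway lists are described), and the 3 genes most like each member. In the cell type marker lists no gene passed the test in any tested comparison. Coordinates and transcript lengths are from GENCODE M21 and promoters from RefSeq. Alternatives were other pseudocounts, filters, scalings and covariates, fits on the compared groups alone, limma voom on the recovered reads, and leaving out tumors. Python 3.11.15, numpy 2.4.6, scipy 1.17.1, pandas 2.3.3 and matplotlib 3.10.9 were used.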

Additional observations from a re-analysis of the deposited data

Results flagged for a closer look

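In 3 of the 40 combinations of a member and a treatment group, 1 tumor lay far from the other 9 (Dixon's criterion, which flags about 1 in 20 groups by chance).

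Tkt was at 680.8 RPKM in the vehicle tumor titled Untreated_174, while the next vehicle tumor was at 397.5. The same tumor had the highest epithelial score of the 50 (2.67, in SD units) and ranked 49 of 50 for the cell cycle genes and 48 of 50 for the fibroblast genes. The genes within 10 Mb of Tkt were low in it, at rank 46 of 50. Their part in the Tkt value was not tested.

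Me1 was at 77.96 RPKM in the vehicle tumor titled Untreated_189, with the next vehicle tumor at 36.7. The mean of the genes within 10 Mb of Me1 was the highest of the 50 in this tumor, and the mean of chromosome 9 the second highest. In Untreated_174, which had the lowest Me1 (7.504 RPKM), the genes within 10 Mb of it had the lowest mean of the 50. Their part in the Me1 value was not tested.

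Pgls was at 80.5 RPKM in the IGF1 tumor titled IGF1_160, with the next IGF1 tumor at 54.5. This tumor had the lowest score of the 50 for the SREBP targets (-2.10) and for the cell cycle genes (-2.39), and ranked 37 of 50 by library size. The part of these measures was not tested.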

How the results depend on the processing

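No member passed the test in any comparison in which it was tested under any of the alternatives run, and 860 of 896 fold changes of members kept their direction. The other 36, values that did not pass or, for glargine and for Idh1 against vehicle or pooled groups, were not tested, changed sign, as follows on the log2 scale (the cause was not tested). With quantile normalization, Tkt was at 0.060 and Taldo1 at 0.019 for insulin against vehicle, Pgd at 0.070 for X10 against vehicle and at -0.069 for IGF1 against insulin, and Me1 at 0.034 for X10 against insulin. With upper quartile scaling, the values were 0.0012 for Tkt with insulin, 0.056 for Pgd with X10, 0.039 for Me1 for X10 against insulin and -0.0082 for Pgd for IGF1 against insulin. With library size as a covariate, G6pdx was at -0.0058 with insulin and Pgd at -0.0083 in the pooled comparison. With marker scores as covariates, Tkt and Taldo1 were at 0.12 and 0.038 with insulin, at 0.13 and 0.045 with IGF1 and at 0.0070 and 0.0071 for IGF1 against insulin, Pgd was at 0.015 with X10, Idh1 at -0.0080 with IGF1 and Me1 at 0.094 for X10 against insulin. Without the glargine tumors in the pooled comparison, Idh1 was at 0.072. Alternatives chosen after seeing the data gave the rest. With the processed pseudogene share as a covariate, Pgd was at 0.016 with X10, Taldo1 at 0.0042 and Pgls at 0.064 in the pooled comparison, and Taldo1 at 0.0011 and Idh1 at -0.012 for X10 against insulin. Without Untreated_174, Tkt was at 0.12, 0.057 and 0.043 with insulin, glargine and IGF1, Taldo1 at 0.040 with insulin, Pgd at 0.082 with X10 and Idh1 at -0.041 with IGF1. Without IGF1_160, Pgls was at -0.056 with IGF1, Idh1 at 0.0032 and Pgd at -0.010 in the pooled comparison and Pgd at -0.015 for IGF1 against insulin. Leaving out Untreated_174, Untreated_189 or IGF1_160 in turn, the other ends of these ranges were -0.094 for Taldo1 with insulin, -0.078 and -0.13 for Tkt with glargine and IGF1, -0.017 for Pgd with X10, 0.087 for Idh1 with IGF1 and -0.049 in the pooled comparison, and 0.013 for Pgd for IGF1 against insulin.

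The counts of genes called among all genes were small and moved more. For insulin against vehicle (0 genes), 2 were called with a minimum mean RPKM of 5, after quantile or upper quartile scaling and when library size entered the fit, and 3 with the pseudogene share. For X10 against vehicle (11), the count was 24 without a filter, 4 with the compared groups alone, 1 with library size, 4 without pseudogenes, 2 with the pseudogene share and 1 without Untreated_174. For IGF1 against vehicle (1), it was 0 with the minimum of 5, with the compared groups alone and with marker scores, 2 with the pseudogene share and 2 without IGF1_160. For glargine against vehicle (0), it was 2 with the pseudogene share. For the pooled comparison (26), it was 11 without a filter, 17 with the minimum of 5, 51 with upper quartile scaling, 14 with library size, 39 with marker scores, 1 without pseudogenes, 16 with voom, 1 without the glargine tumors, 2 with the pseudogene share, 21 without Untreated_189 and 46 without IGF1_160. For X10 against insulin (17), it was 8 without a filter, 31 with the compared groups alone, 7 with library size, 11 with marker scores, 2 without pseudogenes, 8 with voom, 10 with the pseudogene share and 30 without IGF1_160. For IGF1 against insulin (1), it was 2 with marker scores and 0 with a pseudocount of 0.1, no filter, upper quartile or quantile scaling, no trend, the compared groups alone, library size, voom and without IGF1_160.

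Of 28 pairs of members, 9 were called in r over all tumors and 8 to 10 with other pseudocounts, scaling, centring or without the glargine tumors, but 5 without Untreated_174, 8 without IGF1_160 and 0 without both. Of 104 relations to scores, 6 were called, against 3 without the glargine tumors, 3 without Untreated_174, 2 without IGF1_160 and 1 without both. No paired analysis was possible because each mouse number occurs in a single group. The members had at least 896 reads in every tumor, and what limited the calls was not tested.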
